A study of Mus musculus with 8 samples.

Results

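Cholesterol is built in the cytosol and the endoplasmic reticulum from acetyl-CoA, through mevalonate, isoprenoid units and squalene, by a chain of enzymes whose genes share one transcription factor, SREBP-2. The data described here are the transcript levels of 8 genes of this pathway in mouse quadriceps femoris (QF) muscle with and without an induced loss of Grpel1, a cochaperone of mitochondrial matrix protein import. The 8 genes were taken by name from the deposited table, which holds 14012 genes, and all 8 had a row. They are the enzymes Hmgcs1, Idi1, Fdps, Fdft1, Sqle and Lss, together with the regulators Insig1 and Srebf2. No receptor or transporter for sterol uptake is among them, and the uptake genes were examined as a separate list.

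SREBP-2 is made as a membrane protein of the endoplasmic reticulum and is held there by INSIG proteins through its escort SCAP when sterols are plentiful. When sterols fall, it travels to the Golgi, is cut by the proteases encoded by Mbtps1 and Mbtps2, and its released part switches on the synthesis enzymes, Insig1 and its own gene. Skeletal muscle makes cholesterol for its membranes and uses the same isoprenoid units for ubiquinone, dolichol and prenylated proteins.

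RNA was sequenced from the QF of 4 mice labelled knockout, KO (Grpel1 smk -/-), and of 4 labelled control, WT (Grpel1 flox/flox), with 1 library per mouse. In the knockout mice, named Grpel1skm-/- by the study, both alleles of Grpel1 are floxed and a tamoxifen-inducible Cre recombinase, driven by the human skeletal muscle actin promoter (HSA-Cre), deletes the gene in muscle fibres, and other cells of the muscle are not targeted. The controls carry the same floxed alleles. The labels give no treatment for either group and no age, and whether the sequenced controls received tamoxifen or carried Cre is not given in the sources used here, so an effect of either cannot be told apart from the loss of Grpel1. Targeted embryonic stem cells had been injected into C57BL/6NCrl blastocysts, the strain of the later crosses is not given in the sources used here, and the labels name a separate animal for each library.

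The libraries held 16017565 to 20361144 counts on the 14012 genes. Levels are given as CPM, edgeR's read count scaled to a common library size by the TMM method, whose factors were 0.75 to 0.84 in control mice and 1.19 to 1.33 in knockout mice. Differences are log2 fold changes of knockout against control from edgeR's quasi-likelihood test, called at a Benjamini-Hochberg adjusted p under 0.01 over all genes. Grpel1 itself had 68.4 ± 3.04 CPM in control mice and 65.3 ± 6.11 CPM in the libraries labelled knockout (SD, n = 4 each; log2 fold change -0.07, edgeR adjusted p = 0.487), so its whole-gene count does not check the labels, and every direction below rests on them. All 6 muscle fibre markers examined were present, and all 6 were lower in knockout mice, with a summed level of 188300 to 246800 CPM in control mice and 55410 to 76380 CPM in knockout mice. Markers of satellite cells and myoblasts summed to 32.9 to 39.9 CPM in control mice and 762 to 1610 CPM in knockout mice, with 4 of 6 higher (Myf5, Myog, Myh3 and Myh8). Most of that sum was Myh3 and Myh8, developmental myosins also made by regenerating fibres, at means of 2.55 and 6.41 CPM in controls and 311.8 and 673.3 CPM in knockouts, whereas the satellite cell marker Pax7 had 2.51 and 3.06 CPM (edgeR adjusted p = 0.28) and Myod1 17.7 and 19.5 CPM (adjusted p = 0.681). Macrophage markers had 1 of 6 higher (Cd68), though every one had a positive log2 fold change, with a median of 1.003. Adgre1, C1qa and C1qb missed the threshold with edgeR adjusted p of 0.016, 0.019 and 0.030. Fibroblast markers had 4 of 6 lower, endothelial markers 4 of 5 lower, and Schwann cell markers none of 6 past the threshold. Of all genes, 23.6% were called higher and 21.1% lower. None of the 7 adipocyte markers passed it, but their summed level ran from 249 to 1497 CPM in control mice and from 712 to 2591 CPM in knockout mice. No marker had a count of 0 in any library, and the part of any of these cell types in the results below was not tested unless a value is given. In bulk RNA, fewer cells of a type and less RNA per cell cannot be told apart.

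Stretches of 4 promoters are shown because they carry the short motifs through which SREBP-2 and its partner factors are known to act. RefSeq promoter windows (GRCm38.p6, 250 bases before to 50 after the gene start) matched 5 of the 8 genes, Hmgcs1, Idi1, Insig1, Lss and Srebf2. Windows for Sqle, Fdps and Fdft1 were not analysed here. Capitals mark the motif, which is the sterol regulatory element TCACCCCA in Hmgcs1 and Srebf2, the E-box CACGTG in Insig1 and the CCAAT box, read on the other strand as ATTGG, in Lss. All 4 lie on the + strand, at chr13:119690189-119690246 for Hmgcs1, chr15:82147082-82147139 for Srebf2, chr5:28071286-28071341 for Insig1 and chr10:76531518-76531572 for Lss.
Hmgcs1: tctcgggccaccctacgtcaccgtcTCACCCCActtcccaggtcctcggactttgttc
Srebf2: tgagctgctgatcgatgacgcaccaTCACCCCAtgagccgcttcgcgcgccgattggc
Insig1: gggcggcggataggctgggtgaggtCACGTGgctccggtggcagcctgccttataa
Lss: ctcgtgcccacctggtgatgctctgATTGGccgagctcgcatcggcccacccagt

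Each motif was searched on both strands, and the motifs do not overlap in these stretches. TCACCCCA began 137 bases before the start of Hmgcs1 and 162 bases before that of Srebf2, and was present in 2 of the 5 windows and in 1.56% of the 32851 windows of all genes. CACGTG was found in 1 of the 5, 101 bases before the start of Insig1, and in 7.15% of all windows. CCAAT was found in 5 of 5 and in 37.4% of all windows, and the GC box GGGCGG in 5 of 5 and in 35.7%. The Lss stretch holds the single CCAAT box of its window, 62 bases before the start. Left in lower case are a CCAAT box in the Srebf2 stretch, 135 bases before the start, and a GC box in the Insig1 stretch, 126 bases before it. A match is a description of these letters and shows no binding.

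Of the 8 sterol genes, Sqle and Lss were higher in knockout mice and none was lower. Sqle encodes squalene epoxidase, a rate-limiting oxygen-dependent step, and Lss encodes lanosterol synthase, which closes the epoxide into the first sterol. Sqle was 2.29-fold and Lss 2.07-fold higher, whereas the fold changes of the other 6 genes lay between 0.84 and 1.199 and missed the threshold. Among the 14012 genes tested, 23.6% were called higher and 21.1% lower, so 2 of 8 higher is a share close to that of the whole table. The count at an unadjusted p under 0.05 was 3 higher, with Srebf2 added, and 0 lower. Over all 14012 genes, that cut-off gave 4797 higher and 4113 lower. DESeq2 also called 2 of the 8 higher and 0 lower, for which the share over all genes is not given here. Values of the control and knockout libraries did not overlap for 2 of the 8 genes, against 53.4% of all genes. The median log2 fold change of the 8 was 0.11, against 0.07 over all genes.

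**Figure D1:**
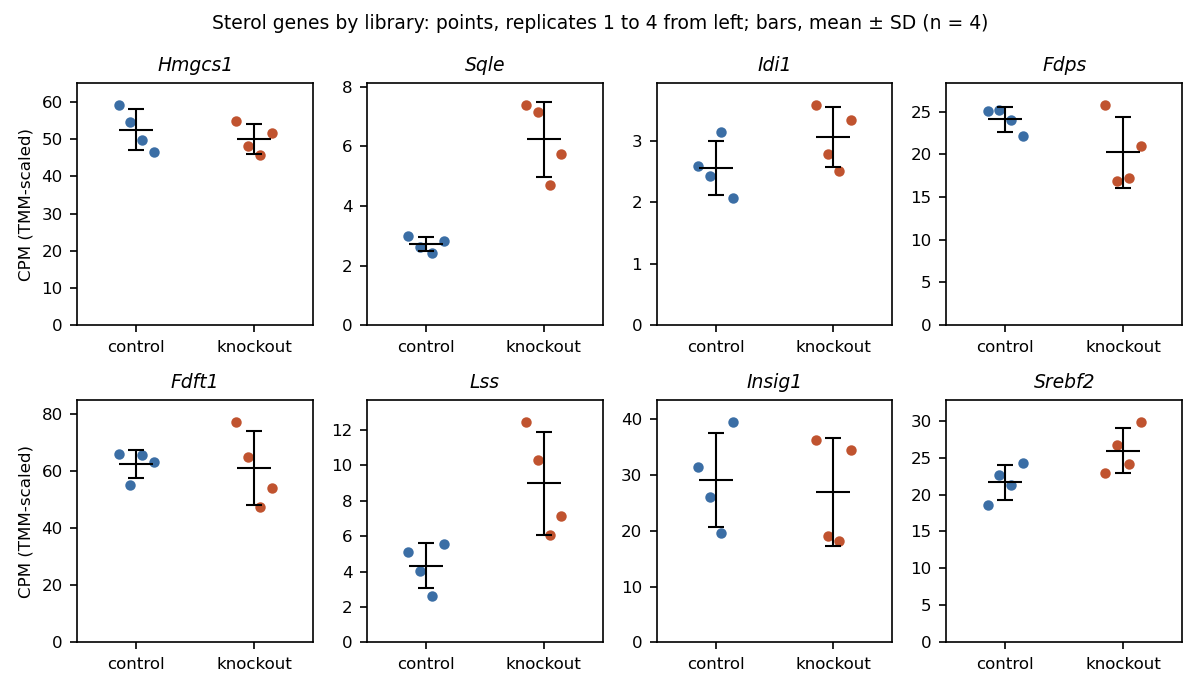
CPM over TMM-scaled library sizes (vertical axes, each from 0) of the 8 sterol genes in every library, with replicates 1 to 4 from left to right in each group and bars for the mean ± SD (n = 4). Sqle and Lss are the 2 genes whose knockout points all lie above the control points, at 4.71 to 7.38 against 2.43 to 2.99 CPM for Sqle and 6.07 to 12.4 against 2.65 to 5.54 CPM for Lss.

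The early part of the pathway is represented by Hmgcs1, Idi1 and Fdps. Gene spans are given on GRCm38, the build of the files. Hmgcs1 (chr13:119690351-119708260, + strand) encodes the cytosolic HMG-CoA synthase, which joins acetyl-CoA to acetoacetyl-CoA on the way to mevalonate. Its level was 59.2, 54.6, 49.9 and 46.7 CPM in control replicates 1 to 4 and 55.0, 48.3, 45.8 and 51.7 CPM in knockout replicates 1 to 4. The groups overlapped almost fully, and the log2 fold change was -0.07 with a 95% interval of -0.27 to 0.13 (standard error, SE, 0.09; edgeR adjusted p = 0.542). This was the narrowest interval of the 8 genes.

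Idi1 (chr13:8885606-8892396, + strand) encodes the isomerase that interconverts the isopentenyl and dimethylallyl diphosphates from which all isoprenoids are made. It had 2.58, 2.42, 3.15 and 2.08 CPM in control mice and 3.59, 2.79, 2.52 and 3.34 CPM in knockout mice, which is 32 to 44 counts per control library and 61 to 86 per knockout library. The groups overlapped, with a log2 fold change of 0.26 and an interval of -0.15 to 0.67 (SE 0.18, edgeR adjusted p = 0.245). At this depth a difference as large as the upper bound would not have been excluded.

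Fdps (chr3:89093588-89101967, - strand) encodes farnesyl diphosphate synthase, which stands at the branch between sterols and the other isoprenoids. Controls had 25.04, 25.2, 23.98 and 22.1 CPM and knockouts 25.8, 16.9, 17.2 and 20.9 CPM. Knockout replicate 1 lay above every control, and the other 3 knockouts lay below every control. The log2 fold change was -0.25 with an interval of -0.55 to 0.04 (SE 0.13, edgeR adjusted p = 0.127), and it passed the threshold as lower, at -0.40 with an adjusted p of 0.00873, without knockout replicate 1.

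The next 3 enzymes carry farnesyl diphosphate into the sterol nucleus. Fdft1 (chr14:63145150-63179578, - strand) encodes squalene synthase, the first enzyme committed to sterols. It had 66.0, 55.4, 65.6 and 63.2 CPM in control mice and 77.3, 65.2, 47.6 and 54.4 CPM in knockout mice, so that the knockouts reached both above and below the controls. Its log2 fold change was -0.03 with an interval of -0.34 to 0.27 (SE 0.14, edgeR adjusted p = 0.848), and its sign turned, to 0.04, without knockout replicate 3. Fdft1 shares 774 bases with Ctsb on the opposite strand, and the use of strand in counting is not given in the sources used here, so reads from this stretch cannot be assigned with certainty. Ctsb, which encodes cathepsin B, had a log2 fold change of 0.13 (SE 0.12, edgeR adjusted p = 0.376).

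Sqle (chr15:59315092-59331193, + strand) had 2.99, 2.62, 2.43 and 2.84 CPM in control mice and 7.38, 7.14, 4.71 and 5.72 CPM in knockout mice, from 34 to 45 counts per control library and 114 to 177 per knockout library. The lowest knockout library was above the highest control library. The means were 2.72 ± 0.24 and 6.24 ± 1.26 CPM (SD, n = 4 each), and the log2 fold change was 1.196 with an interval of 0.81 to 1.59 (SE 0.17, edgeR adjusted p = 2.28e-04). An exact permutation test over the 70 assignments of the mice gave a two-sided p of 0.0286, the smallest it allows, and 0.114 after adjustment over the 8 genes. With this floor, Sqle and Lss could not fall under 0.05 after adjustment unless more of the 8 genes reached it too.

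Lss (chr10:76531605-76557139, + strand) had 5.09, 4.06, 2.65 and 5.54 CPM in control mice and 12.4, 10.3, 6.07 and 7.16 CPM in knockout mice. The lowest knockout library, replicate 3, was close above the highest control library, replicate 4, and replicate 3 was the lowest of its group in both groups. The means were 4.33 ± 1.29 and 8.99 ± 2.91 CPM (SD, n = 4 each), and the log2 fold change was 1.05 with an interval of 0.44 to 1.66 (SE 0.27, edgeR adjusted p = 0.00787). The exact permutation p was again 0.0286, and 0.114 over the 8 genes. The call was lost without any of control replicates 1, 2 and 3 or knockout replicates 1, 2 and 4 (log2 fold changes of 0.83 to 1.13, adjusted p up to 0.0243) and with the adipocyte markers as a covariate (0.67, adjusted p = 0.0217). Adipocyte markers summed to 1497, 996, 249 and 1462 CPM in control replicates 1 to 4 and to 2591, 1447, 712 and 1553 CPM in knockout mice, lowest in replicate 3 of each group, as Lss and Sqle were. Sqle with the same covariate had a log2 fold change of 1.04 and stayed past the threshold.

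**Figure D2:**
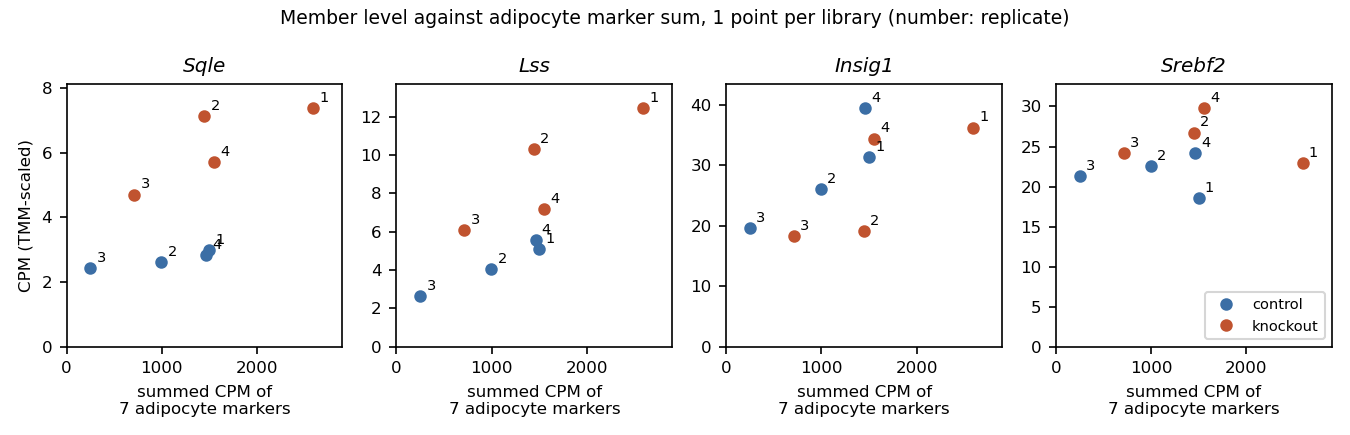
Level of Sqle, Lss, Insig1 and Srebf2 in CPM (vertical axes, from 0) against the summed CPM of 7 adipocyte markers (horizontal axes) in each library, with the replicate number beside each point. At sums of 1447 to 1553 CPM, knockout replicates 2 and 4 lie above control replicates 1 and 4 for Sqle, Lss and Srebf2. Insig1 does not separate there. The lowest sum of each group, 249 CPM in control replicate 3 and 712 CPM in knockout replicate 3, goes with the lowest Lss and the lowest Sqle level of that group.

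The regulators showed no called difference. Insig1 (chr5:28071412-28078662, + strand) encodes a membrane anchor that retains SCAP and SREBP-2 in the endoplasmic reticulum. It had 31.4, 26.1, 19.6 and 39.5 CPM in control mice and 36.2, 19.1, 18.2 and 34.4 CPM in knockout mice, so that each group held low and high libraries and the groups overlapped. The log2 fold change was -0.11 with an interval of -0.71 to 0.49 (SE 0.27, edgeR adjusted p = 0.745). Its sign turned without control replicate 4 (0.08), knockout replicate 2 (0.0008076) or knockout replicate 3 (0.00383), so no direction can be given.

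Srebf2 (chr15:82147269-82204960, + strand), which encodes SREBP-2, had 18.6, 22.6, 21.3 and 24.2 CPM in control mice and 22.9, 26.7, 24.2 and 29.8 CPM in knockout mice. Control replicate 4 lay above knockout replicate 1 and level with knockout replicate 3, and the other controls lay below every knockout. Its log2 fold change was 0.26 with an interval of 0.02 to 0.50 (SE 0.11, unadjusted p = 0.0385 and adjusted p = 0.0627 from edgeR), and the exact permutation p was 0.0857. The count measures the transcript and not the cut, active form of the protein.

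Per kilobase of exon, control levels were 16.9 ± 1.34 CPM for Fdft1, 16.5 ± 0.97 for Fdps, 14.7 ± 1.53 for Hmgcs1, 11.0 ± 3.17 for Insig1, 4.74 ± 0.52 for Srebf2, 0.99 ± 0.09 for Sqle, 0.89 ± 0.16 for Idi1 and 0.69 ± 0.20 for Lss (SD, n = 4). Fdft1, Fdps and Hmgcs1 did not differ beyond their spread, nor did Sqle and Idi1 or Idi1 and Lss. Hmgcs1 and Insig1 overlapped as well, and Srebf2 stood apart from the genes on either side. The 2 genes that were higher in knockout mice were thus among the 3 with the lowest levels per kilobase. Knockout levels per kilobase were 16.5 ± 3.52 CPM for Fdft1, 14.0 ± 1.121 for Hmgcs1, 13.8 ± 2.83 for Fdps, 10.2 ± 3.65 for Insig1, 5.67 ± 0.66 for Srebf2, 2.27 ± 0.46 for Sqle, 1.42 ± 0.46 for Lss and 1.07 ± 0.17 for Idi1. Spread between mice was widest for Lss and Insig1, with coefficients of variation of 29.6% and 28.8% in control mice and 32.4% and 35.8% in knockout mice.

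Ratios within a library do not depend on how libraries are scaled, so each of the other 7 genes was also set against Srebf2. Such a ratio also carries any change of Srebf2 itself, whose log2 fold change under TMM was 0.26. The log2 ratio of Sqle to Srebf2 was -2.62, -3.09, -3.11 and -3.08 in control mice and -1.63, -1.90, -2.36 and -2.38 in knockout mice. These groups did not overlap, and the mean ratio was 0.91 higher on the log2 scale (exact permutation p = 0.0286, 0.20 adjusted over the 7 ratios). For Lss the ratio was -1.86, -2.47, -2.99 and -2.12 in control mice and -0.88, -1.37, -1.99 and -2.05 in knockout mice, which overlapped, with a mean difference of 0.78 (exact p = 0.114). The mean difference was -0.53 for Fdps (exact p = 0.0857), -0.39 for Insig1, -0.32 for Hmgcs1, -0.31 for Fdft1 and -0.01 for Idi1, with exact p from 0.114 to 1 for the last 4. Fdps, Insig1, Hmgcs1 and Fdft1 themselves had log2 fold changes of -0.25, -0.11, -0.07 and -0.03, none past the threshold. Their negative ratios therefore do not show lower levels of these genes. No ratio passed after adjustment, and with 7 ratios and a smallest possible p of 0.0286 a single ratio cannot.

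**Figure D3:**
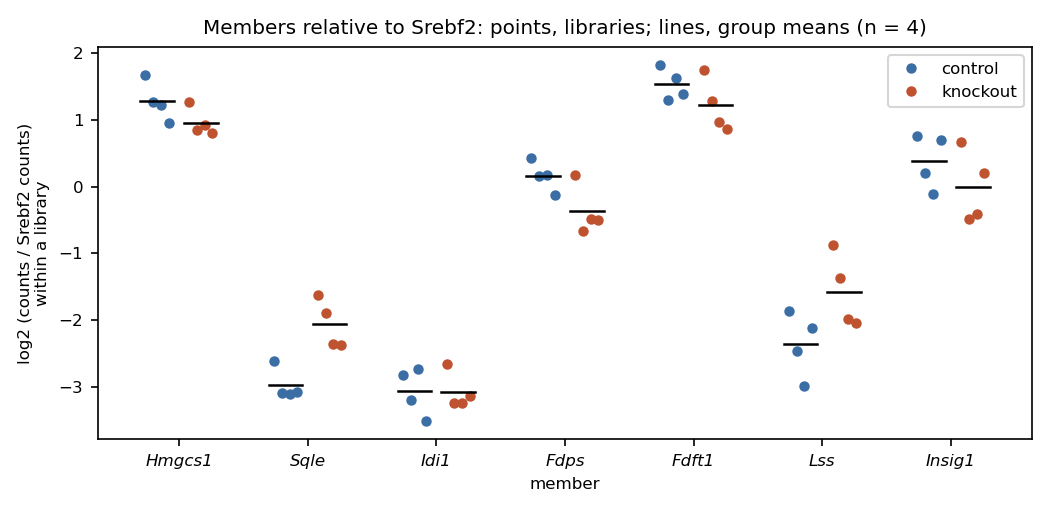
Log2 ratio of each of 7 sterol genes to Srebf2 within each library (vertical axis) for the 4 control and 4 knockout libraries. Sqle is the gene whose groups do not overlap, at -3.11 to -2.62 in control mice and -2.38 to -1.63 in knockout mice.

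Control replicate 3 and knockout replicate 3 had the lowest mean of the 8 genes relative to their own group, at -0.13 and -0.30 on the log2 scale, and knockout replicate 1 the highest, at 0.28. The remaining libraries lay between -0.03 and 0.09. The 5 genes whose deviations from the group mean followed this pattern most closely over the 8 libraries, among 9784 genes with a mean of at least 5 CPM, were Hibch, Rtn3, Ormdl3, Mettl7a1 and Mecr, with Pearson's r of 0.993, 0.993, 0.992, 0.988 and 0.986. With 8 libraries and this many genes ranked, these values are a description.

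The other enzymes of cholesterol synthesis were mixed in direction. Of 13 counted, 2 were higher and 1 was lower, against 23.6% and 21.1% of all genes, and the median log2 fold change was 0.23. Mvd, which encodes the mevalonate diphosphate decarboxylase that makes isopentenyl diphosphate, had 5.01, 4.25, 5.44 and 5.99 CPM in control mice and 17.9, 12.0, 26.6 and 20.4 CPM in knockout mice, a log2 fold change of 1.89 (SE 0.23, edgeR adjusted p = 6.27e-05). Msmo1, the methylsterol monooxygenase, had 5.09, 4.45, 3.22 and 3.65 CPM in control mice and 10.8, 10.2, 8.21 and 10.8 CPM in knockout mice, a log2 fold change of 1.29 (SE 0.16, edgeR adjusted p = 7.89e-05). Neither gene overlapped between the groups. Knockout replicate 3, the lowest knockout for Sqle and Lss, was also the lowest for Msmo1 but the highest for Mvd. Msmo1 was lowest in control replicate 3 as well, as Sqle, Lss and the adipocyte sum were.

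Hsd17b7, which reduces the keto group left by removal of the C4 methyl groups, was the enzyme that was lower, at 14.5, 10.9, 11.2 and 8.88 CPM in control mice and 7.88, 6.87, 6.15 and 6.64 CPM in knockout mice (log2 fold change -0.72, SE 0.15, edgeR adjusted p = 0.00243). With library totals alone this call was lost (-0.047, adjusted p = 0.78), and without knockout replicate 1 the list had 2 lower, for which the share over all genes is not given here.

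Placed in the order of their reactions, 19 enzymes from Acat2 to Dhcr7 gave 4 higher, 1 lower and 14 that did not pass, with a median of 0.23. Of all genes, 23.6% were called higher and 21.1% lower. The 4 that were higher, Mvd, Sqle, Lss and Msmo1, lay in 3 separate places along this order, with Sqle and Lss as neighbours. Acat2, the thiolase at its head, and Dhcr7 were chosen after their values were seen. Acat2 had a log2 fold change of 1.29 but an interval of 0.10 to 2.47 (edgeR adjusted p = 0.060), with 2.43 to 10.2 CPM in control mice and 4.38 to 29.1 CPM in knockout mice, again lowest in replicate 3 of each group. Dhcr7, a reductase of the late steps, had a log2 fold change of -0.56 (edgeR adjusted p = 0.0312) and did not pass.

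**Figure D4:**
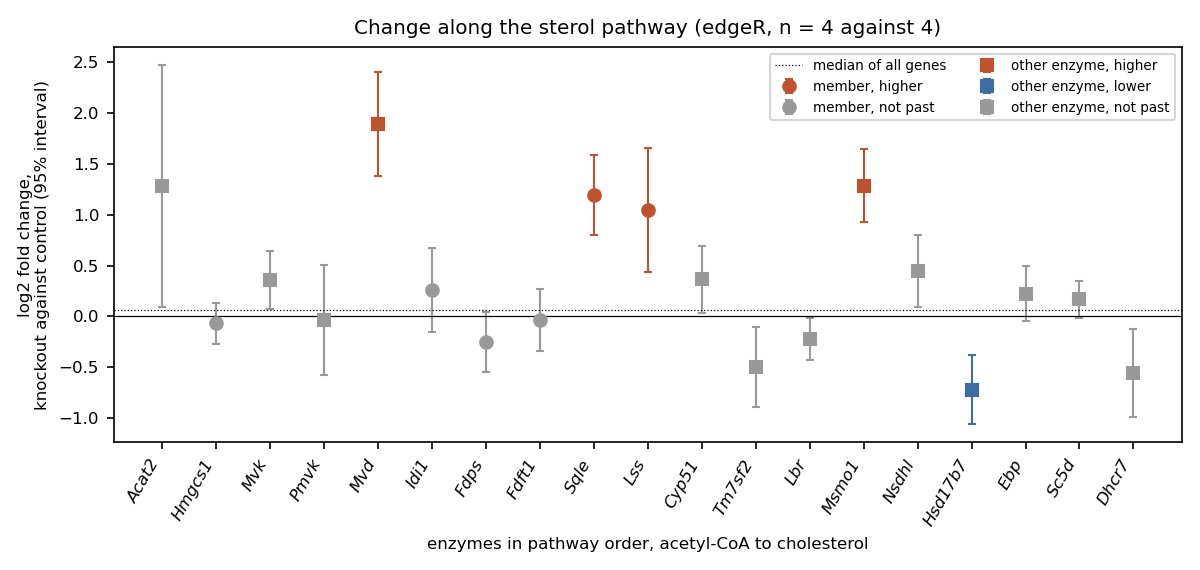
Log2 fold change of knockout against control with its 95% interval (vertical axis) for 19 enzymes in the order of their reactions (horizontal axis), the 6 enzymes among the 8 genes described here marked apart from the other 13. Mvd, Sqle, Lss and Msmo1 are called higher, at 1.05 to 1.89, and Hsd17b7 is called lower, at -0.72.

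Genes that govern SREBP moved in both directions. Of 10 counted, 5 were higher and 2 lower, against 23.6% and 21.1% of all genes, and the median log2 fold change was 0.33. Rnf145, a ubiquitin ligase of the endoplasmic reticulum, was higher at 18.9 to 23.1 CPM in knockout mice and 9.30 to 13.2 CPM in control mice (log2 fold change 0.89, SE 0.12, edgeR adjusted p = 1.57e-04). Erlin1 and Erlin2, which form a complex in the same membrane that restrains SREBP, were higher by 0.88 (SE 0.15, adjusted p = 7.61e-04) and 0.75 (SE 0.10, adjusted p = 1.36e-04) in the edgeR fit. The remaining 2 that were higher, in the same fit, were Scap at 0.64 and the protease gene Mbtps2 at 0.56, which lie outside the rule for naming and were chosen after their values were seen.

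The 2 that were lower take part in retention and degradation at the endoplasmic reticulum. Rnf139, another ubiquitin ligase, had 62.4 to 80.9 CPM in control mice and 41.9 to 52.5 CPM in knockout mice (log2 fold change -0.62, SE 0.10, edgeR adjusted p = 3.397e-04). Insig2, the paralog of Insig1, was 67.0 to 82.3 CPM in control mice and 53.1 to 61.8 CPM in knockout mice (-0.37, SE 0.08, edgeR adjusted p = 0.00319). With library totals alone the signs of these 2 turned, to 0.05 and 0.30, and the Insig2 call was lost with the adipocyte covariate (-0.30). The difference between Insig2 and Insig1 was not tested.

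Genes of sterol uptake and of transport inside the cell had 2 of 13 higher and 2 lower, with a median of 0.16. The shares over all genes were 23.6% higher and 21.1% lower. Vldlr, the receptor for triglyceride-rich lipoproteins that is abundant in muscle, was lower at 155.9 to 191.2 CPM in knockout mice and 245.2 to 353.0 CPM in control mice (-0.77, SE 0.13, edgeR adjusted p = 5.37e-04), a call lost with library totals alone (-0.11, adjusted p = 0.476).

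The genes of the pair that moves cholesterol out of lysosomes went in opposite directions. Npc1, the membrane partner, was 110.4 to 152.4 CPM in control mice and 59.3 to 72.1 CPM in knockout mice (log2 fold change -0.95, SE 0.10, edgeR adjusted p = 3.32e-05), a call lost with library totals alone (-0.28, adjusted p = 0.0153), and Npc2, the soluble partner, was 41.7 to 63.4 CPM in control mice and 76.6 to 117.0 CPM in knockout mice (0.75, SE 0.16, edgeR adjusted p = 0.00274), a call lost without knockout replicate 4 (0.70). Neither overlapped between the groups. Stard5, a lipid-binding START protein, showed the largest difference of this list, with 2.65 to 3.65 CPM in control mice and 9.21 to 13.2 CPM in knockout mice (1.95, SE 0.16, edgeR adjusted p = 4.48e-06).

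Among genes of sterol efflux, storage and oxidation, 2 of 10 measured were higher and 1 was lower, with a median of 0.35. Of all genes, 23.6% were higher and 21.1% lower. Soat1, which esterifies cholesterol for storage, had 2.58, 3.404, 2.505 and 2.84 CPM in control mice and 12.5, 13.9, 12.96 and 11.5 CPM in knockout mice (log2 fold change 2.16, SE 0.13, edgeR adjusted p = 7.48e-07). Soat1 and Abcg1, an exporter of cholesterol (0.86, SE 0.21, edgeR adjusted p = 0.00608), are both also expressed in macrophages, whose 6 markers summed to 42.6 to 112.2 CPM in control mice and 100.6 to 184.2 CPM in knockout mice, with Cd68 higher, and the part of these cells was not tested. The Abcg1 call was lost without any single library other than knockout replicate 3 (0.68 to 0.92) and with the adipocyte covariate (0.71, adjusted p = 0.0347). Cyp27a1, the mitochondrial sterol 27-hydroxylase, had 97.3, 93.5, 111.6 and 89.5 CPM in control mice and 35.1, 28.9, 31.7 and 22.1 CPM in knockout mice, a log2 fold change of -1.73 (SE 0.14, edgeR adjusted p = 3.75e-06).

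The nonsterol branch, which draws on the products of Idi1 and Fdps, had 2 of 10 genes higher and 3 lower, with a median of 0.01. Over all genes the shares were 23.6% higher and 21.1% lower. Dhdds, which makes dolichol precursors, and Ggps1, which makes geranylgeranyl diphosphate, were higher by 0.51 (SE 0.10, adjusted p = 0.00117) and 0.43 (SE 0.10, adjusted p = 0.0035) in the edgeR fit. Nus1, the partner subunit of the Dhdds product, was 44.8 to 48.3 CPM in control mice and 35.2 to 37.9 CPM in knockout mice (log2 fold change -0.31, SE 0.06, edgeR adjusted p = 0.00113). Pdss2, a subunit of the enzyme that makes the ubiquinone side chain, had a log2 fold change of -0.56 (SE 0.11, edgeR adjusted p = 0.00195). Icmt, which methylates prenylated proteins, had -0.35 (SE 0.06, edgeR adjusted p = 9.42e-04). The Ggps1 call was lost without control replicate 2 or 3 or any 1 of the knockout replicates (0.36 to 0.42) and with the adipocyte covariate (0.38, adjusted p = 0.0165). With library totals alone the signs of the 3 lower genes turned, to 0.35 for Nus1 (adjusted p = 4.48e-04) and 0.32 for Icmt (adjusted p = 0.00175), both then called higher, and to 0.10 for Pdss2.

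Fatty acid synthesis genes, which SREBP-1c and other factors govern in muscle, liver and fat, had 2 of 14 higher and 2 lower, although the median log2 fold change was 1.02. Of all genes, 23.6% were called higher and 21.1% lower. The count of higher genes was 0 without control replicate 1, 2 or 3, 3 without control replicate 4, 1 without knockout replicate 1, 2 or 4 and 5 without knockout replicate 3. For these counts the shares over all genes are not given here. Fasn, the fatty acid synthase, ran from 28.7 to 1131 CPM in control mice and from 633.6 to 4678 CPM in knockout mice (2.10, SE 0.87, edgeR adjusted p = 0.0595, chosen after its values were seen), lowest in replicate 3 of each group, as the adipocyte sum was. Fads1, a fatty acid desaturase, was higher at 11.4 to 25.6 CPM against 7.37 to 10.6 CPM (0.99, SE 0.23, edgeR adjusted p = 0.00374), and Acss2, the cytosolic acetyl-CoA synthetase, at 69.4 to 172.0 against 32.6 to 68.2 CPM (1.06, SE 0.29, edgeR adjusted p = 0.00985). Both calls were lost with the adipocyte covariate, at 0.74 and 0.67, and without control replicate 1, 2 or 3 (0.91 to 0.996 for Fads1 and 0.89 to 1.07 for Acss2), and that of Acss2 also without knockout replicate 1, 2 or 4 (0.70 to 1.104), with DESeq2 (1.01, adjusted p = 0.0116), with RLE factors (adjusted p = 0.0112), with robust dispersion (adjusted p = 0.0276) and with the 20 most abundant genes left out of scaling (adjusted p = 0.011). Gpam, an acyltransferase of triglyceride synthesis, was lower (-1.06, SE 0.10, edgeR adjusted p = 1.65e-05), though not past the threshold with library totals alone (-0.40, adjusted p = 0.0179), as was Acacb, the mitochondrial acetyl-CoA carboxylase (-0.62, SE 0.14, edgeR adjusted p = 0.00352), a call lost without control replicate 4 (-0.58) and turned in sign, to 0.044, with library totals alone. Srebf1, the gene for SREBP-1 and also chosen after its values were seen, had 76.0 to 130.9 CPM in control mice and 51.1 to 169.7 CPM in knockout mice (0.09, SE 0.31, edgeR adjusted p = 0.824).

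The scaling of the libraries sets where 0 lies for all of these values. With library totals alone, the median log2 fold change over all genes moved from 0.07 to 0.73 and that of the 8 sterol genes from 0.11 to 0.78. Relative to the median of all genes, Sqle was 1.13 higher under TMM, RLE and library totals, and Lss was 0.98 higher under each. On the same relative scale under TMM, Srebf2 and Idi1 were 0.19 and 0.20 higher, Hmgcs1, Fdft1 and Insig1 were at -0.13, -0.10 and -0.17, and Fdps was at -0.32.

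**Figure D5:**
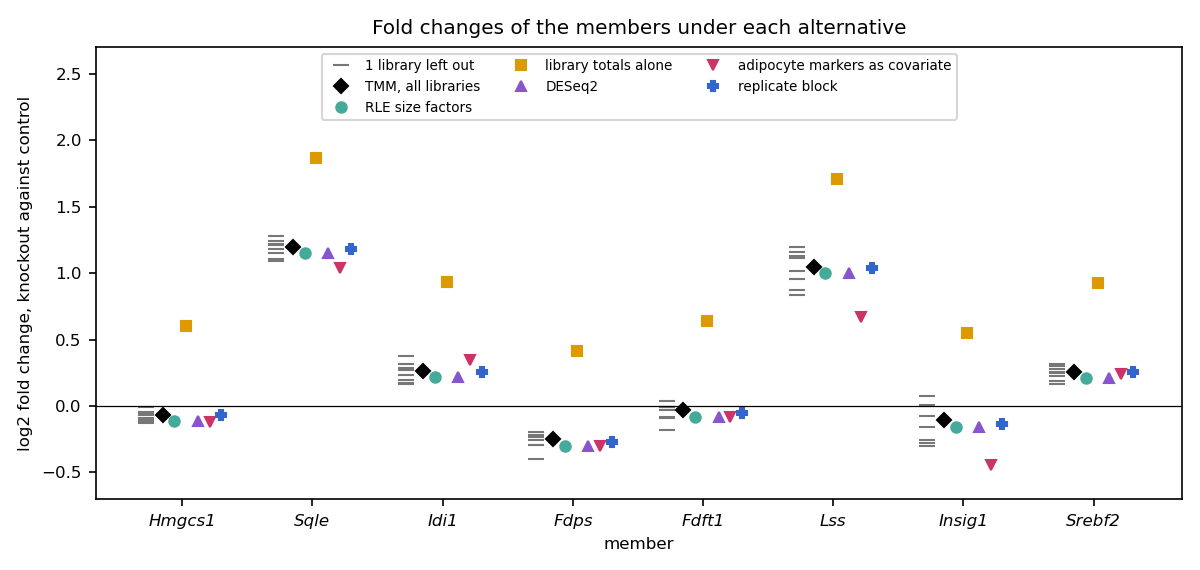
Log2 fold change of knockout against control (vertical axis) for the 8 sterol genes (horizontal axis) with all libraries under TMM, under 5 of the other settings, and with each library left out in turn (short lines). Sqle lies between 1.04 and 1.87 and Lss between 0.67 and 1.71, while with library totals alone all 8 genes lie above 0.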

How the data were processed

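Polyadenylated RNA of QF muscle was sequenced from NEBNext Ultra II Directional libraries. The authors produced a raw count for each gene and library, and their processing notes name bcl2fastq 2.20.0.422, cutadapt, STAR 2.5.4b and GRCm38, with exon counting in Rsubread. Read pairs that were duplicates, multimapping or poorly mapped and genes with few reads in total had been removed, and the lowest total left was 51. The deposited FPKM values and the authors' DESeq2 1.32.0 columns of fold changes and p-values were not used. The deposited exon widths served for levels per kilobase. The strand setting of the counting is not given in the sources used here.

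All 14012 genes were tested in R 4.3.3 with edgeR 4.0.16 (glmQLFit and glmQLFTest, TMM, label as the only term, Benjamini-Hochberg adjustment, threshold 0.01) and, as an alternative, DESeq2 1.42.0. Log2 CPM used a prior count of 2 and ratios a prior count of 0.5. Single values were compared by two-sided exact permutation over 70 assignments. Replicates of a group differed by more than counting noise, with a chi-square of 16.8 to 42.5 for each degree of freedom. Tested on simulated data with 13990 genes, the edgeR fit called 72% of genes given a log2 change of 1, 92% of those given 2, and 3 of 13790 unchanged genes. The changed genes were few and balanced between up and down, with all libraries drawn from control proportions. The simulation therefore held no shift in composition like that between these groups, and it cannot check the scaling or the rate of false calls under it.

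The 8 genes and the lists were chosen with earlier results of these data known. The genes named are the 8, up to 3 in each direction with the largest fold change past the threshold in each list, and the 5 most alike in their deviations, besides those said to be chosen after their values were seen. Erg28, Spring1, Ch25h and the 4 hepatocyte markers listed were not analysed here. Some other genes of the lists are not reported here and were left out of the list counts. Alternatives covered scaling, filtering, the test, the dispersion, the threshold, an adipocyte covariate, the replicate number and each library left out. The 4 libraries of each group limit the precision.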

Additional observations from a re-analysis of the deposited data

How the results depend on the processing

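Sqle stayed past the threshold under all 17 alternatives, with log2 fold changes of 1.04 to 1.87, and Lss under 10 of 17. With library totals alone, 8498 genes were called higher and 873 lower, and 6 of the 8 sterol genes higher. There the signs turned of Hmgcs1 (0.60), Fdps (0.42), Fdft1 (0.64) and Insig1 (0.55), whose mean log2 CPM differences became 0.60, 0.39, 0.61 and 0.53, and of Rnf139 (0.049), Insig2 (0.30), Pdss2 (0.10), Icmt (0.32), Nus1 (0.35) and Acacb (0.044). The mean log2 CPM differences of Sqle, Idi1, Lss and Srebf2 became 1.80, 0.89, 1.68 and 0.92, and Idi1 and Srebf2 passed the threshold, at 0.93 and 0.92. In that setting the lists had 9 higher (other synthesis enzymes), 8 (SREBP control), 9 (uptake and transport), 6 (efflux, storage and oxidation), 9 (nonsterol branch) and 8 (fatty acid synthesis), and 0 lower in each but efflux, storage and oxidation. With the adipocyte markers as a covariate, 1 sterol gene was called higher (Sqle), and 1 gene each in efflux, in the nonsterol branch and in fatty acid synthesis, and 1 SREBP control gene was called lower. At an adjusted p under 0.05, the other synthesis enzymes had 4 higher and 3 lower, uptake 4 lower, efflux 5 higher and fatty acid synthesis 6 higher. The share of all genes at that threshold is not given here, so these counts are a description. DESeq2 called 2 other synthesis enzymes lower. Fatty acid synthesis had 1 higher with RLE factors, with robust dispersion and with the 20 most abundant genes left out of scaling. Apart from library totals alone, the shares of all genes in these other fits are not given here either, so their counts are also a description.

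Leaving out 1 library gave 1 to 2 sterol genes higher and 0 to 1 lower, 1 to 2 other synthesis enzymes lower, 1 to 2 higher in uptake, efflux and the nonsterol branch, and 0 to 5 higher and 1 to 2 lower in fatty acid synthesis. The log2 fold change ran from -0.30 to 0.076 for Insig1 and from -0.18 to 0.036 for Fdft1, their mean log2 CPM differences from -0.31 to 0.029 and from -0.18 to 0.058, and the Idi1 ratio to Srebf2 from -0.16 to 0.10. That ratio was 0.00198 with no prior count. The same replicate numbers occur in both groups, but the deviations of same-numbered libraries correlated at 0.25, 0.03, 0.54 and 0.18 over 9790 genes, so the numbers were not taken to pair the mice. Under the replicate block, efflux had 4 higher and fatty acid synthesis 7, with 2 sterol genes still higher, and controls 1 and 3 but not 2 and 4 correlated best with the knockout of their own number. The shares of all genes with 1 library left out and under the replicate block are not given here, so these counts are a description. The cause of these changes was not tested. Idi1, Sqle and Lss had the lowest counts, with 32 to 88 per control library.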
